A study of Homo sapiens with 4 samples.

Results

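The axon guidance and ephrin families comprise secreted or membrane-bound ligands and the receptors that read them. The 70 genes described here were matched by symbol among the 60675 genes of the tables. The families were chosen with earlier results of these data known, so their shares beside those of all tested genes are description only. They are the slits with their roundabout receptors, and the semaphorins of classes 3 to 7 with the neuropilins and plexins. The others are the netrins with DCC, NEO1 and the UNC5 receptors, and the ephrins with their EPH receptors. RNA sequencing was done in MM134, an estrogen receptor positive cell line derived from a lobular breast carcinoma, a tumour type that mostly lacks E-cadherin. A line with HER2 L755S, in which a residue of the kinase domain of the receptor tyrosine kinase HER2 (gene ERBB2) is replaced, was compared with a line with HER2 WT, with 2 libraries each. Both lines had been without estrogen for 7 days, in phenol red free medium with 5% charcoal-stripped serum, after growth in full serum to 70% confluence. The sources used here do not give how either form of HER2 was brought into the cells, nor whether a line is 1 clone.

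Slits bound to roundabout receptors repel growing axons and migrating cells. Class 3 semaphorins bind neuropilins, which signal through A plexins, while membrane-bound semaphorins mostly bind plexins directly, and SEMA4D binds PLXNB1. Netrins attract through DCC and NEO1 and repel through UNC5 receptors. Ephrins are membrane ligands whose EPH receptors are tyrosine kinases, so that both partners signal at contacts between cells. In mammary tissue these families are known for roles in ductal branching, in adhesion between epithelial layers and in tumour cell migration.

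The total expected count per library was 28836412 and 27423247 in HER2 L755S, and 31088422 and 28804772 in HER2 WT, where a pair of values stands for number 1 and then number 2 of a line, here and below. Mitochondrial genes took 4.03% and 13.5% of the counts in HER2 L755S, against 4.40% and 8.83% in HER2 WT, so number 2 was higher in both lines. ERBB2 was at 2443 and 1203 CPM (counts scaled to library depth) in HER2 L755S, against 1934 and 1936 CPM in HER2 WT, and did not pass the test (edgeR adjusted p = 0.998). The tables count whole genes, so the L755S change itself was not checked. The 7 luminal markers summed to 5883 and 4929 TPM (scaled for transcript length and depth, so that genes can be compared) in HER2 L755S, against 7381 and 6649 TPM in HER2 WT. KRT19 made up most of that sum and was lower in HER2 L755S without overlap in CPM, as was ESR1, the estrogen receptor, at 64.7 and 122 CPM in HER2 L755S, against 176 and 282 CPM in HER2 WT. EPCAM, GATA3 and FOXA1 were higher without overlap in CPM, and KRT8 and KRT18 overlapped. None of the 7 passed (edgeR adjusted p of 0.15 for ESR1 and at least 0.76 for the others). ESR1 had a log2 fold change of -1.29 with a standard error of 0.38, and from -1.84 to -0.89 over the alternative fits. Its adjusted p was 0.010 with edgeR and no filter, 0.056 with DESeq2 and 0.13 with limma-voom. It was 0.17 with edgeR and mitochondrial genes left out. Endothelial markers summed to at most 0.18 TPM in any library, with PECAM1 and CDH5 at 0 in all of them, and leukocyte markers to at most 0.54 TPM. Fibroblast markers summed to 37.6 and 14.8 TPM in HER2 L755S, against 32.7 and 19.0 TPM in HER2 WT, nearly all from COL1A1. Of the 6 markers of neurons and glia, SOX10 was at 0 in every library and SNAP25 gave nearly all of the sum, at 21.1 and 10.9 TPM in HER2 L755S, against 43.7 and 42.8 TPM in HER2 WT. The part of these markers in the results was not tested. In RNA from whole cultures, fewer cells that make a transcript and less of it per cell cannot be told apart. Separate cultures are not stated for the libraries of a line, so p-values reflect the spread between 2 libraries a line, possibly a technical one.

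Of the 70 genes, 54 had counts high enough to be tested. The roundabout receptor ROBO2 and the neuropilin NRP1 rose in HER2 L755S, and the netrin receptor UNC5D fell (edgeR quasi-likelihood test, adjusted over all 16538 tested genes, adjusted p under 0.05). All 3 are receptors. These 3 are 5.56% of the tested members, while 1.69% of all tested genes passed, 0.738% higher and 0.949% lower. No slit, semaphorin, netrin or ephrin passed. Levels in CPM that did not overlap between the lines were seen for 28 of the 54 genes, 12 higher and 16 lower in HER2 L755S (51.9%), against 36.2% of all tested genes, 16.9% higher and 19.3% lower. With 1 library left out, the number of members that fell was 2 without HER2 L755S 1, 3 without HER2 WT 1 and 2 without HER2 WT 2, against 2.04%, 1.31% and 1.07% of all tested genes in the same fits, with the spread of the lone library taken from the other line.

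The promoters of ROBO2 and its paralog ROBO1 are shown because ROBO2 changed most among these genes and ROBO1, beside it on the chromosome, did not pass the test. ROBO2 (ENSG00000185008) lies on chromosome 3 of GRCh38 from 75906695 to 77649964, on the forward strand. ROBO1 lies on the reverse strand further along, and the ends of both genes face each other across 947276 bases. The promoter table of RefSeq (GRCh38.p14) holds a distal and a proximal start of each gene, 729219 bases apart in ROBO2 and 748539 bases apart in ROBO1. The distal start of ROBO2, at 76310880, lies within the gene as positioned above, so it is not the outermost annotated start. The sequence just after it was found in 0 of 13 GENCODE transcripts of ROBO2. For ROBO1 this was 0 of 13 transcripts at the distal start and 3 of 13 at the proximal start. The 250 bases before a start follow for chr3:76310630-76310879 (forward), chr3:79767999-79768248 (reverse) and chr3:79019460-79019709 (reverse), with motif matches in capitals. The window before the proximal start of ROBO2 is not shown, since 213 of its bases lie in exons of other transcripts.
ROBO2 distal: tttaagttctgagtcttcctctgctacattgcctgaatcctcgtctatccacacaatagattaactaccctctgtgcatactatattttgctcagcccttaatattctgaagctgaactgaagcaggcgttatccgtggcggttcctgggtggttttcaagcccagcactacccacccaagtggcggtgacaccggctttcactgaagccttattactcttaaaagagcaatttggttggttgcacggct
ROBO1 distal: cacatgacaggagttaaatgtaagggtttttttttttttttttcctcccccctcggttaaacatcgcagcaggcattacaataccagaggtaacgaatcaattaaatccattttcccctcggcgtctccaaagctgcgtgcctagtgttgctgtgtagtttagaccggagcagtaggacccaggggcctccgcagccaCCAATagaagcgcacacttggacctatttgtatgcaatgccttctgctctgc
ROBO1 proximal: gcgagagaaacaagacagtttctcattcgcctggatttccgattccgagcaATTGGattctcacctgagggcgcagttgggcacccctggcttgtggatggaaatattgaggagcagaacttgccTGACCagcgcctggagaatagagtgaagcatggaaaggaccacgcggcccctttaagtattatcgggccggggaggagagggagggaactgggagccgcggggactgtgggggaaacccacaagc
Both strands were searched for the GC box (GGGCGG), the TATA box (TATAAA), the CCAAT box (CCAAT), the core of the estrogen response element (GGTCA), the full palindromic element that holds this core on each strand, the AP-1 site (TGANTCA) and the ETS core (CCGGAA). The ROBO2 distal window held none of these letters. The ROBO1 distal window held 1 CCAAT box, and the ROBO1 proximal window held 1 CCAAT box, read as ATTGG, and 1 estrogen response core, read as TGACC. Of 35116 promoters in the table, 32.0% held the CCAAT box and 32.6% the estrogen response core, 42.6% the GC box, 14.5% the ETS core, 10.7% the TATA box, 6.57% the AP-1 site and 0.0399% the full palindrome. GC content was 46.8% in the ROBO2 distal window, and 48.0% and 56.8% in the distal and proximal ROBO1 windows, against a median of 58.0% over all promoters of this length. The gene tables do not tell which start a transcript used.

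Slits came almost wholly from 1 gene. SLIT1 was at 128 and 55.0 TPM in HER2 L755S, against 89.3 and 87.9 TPM in HER2 WT, which placed it among the 3 most abundant of the 70 genes. The HER2 L755S libraries lay on both sides of the HER2 WT libraries, and the log2 fold change was 0.16 with a standard error of 0.34 (edgeR adjusted p = 0.998). Within number 1 the difference in log2 CPM was 0.55 and within number 2 it was -0.34. SLIT2 had no count in any library, and SLIT3 had at most 4.

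ROBO2, a receptor for slits, was nearly absent from HER2 WT. It had 202 and 93 counts in HER2 L755S, against 3 and 9 counts in HER2 WT. Scaled for depth these were 6.91 and 3.62 CPM in HER2 L755S, against 0.0927 and 0.310 CPM in HER2 WT. Both HER2 L755S libraries were more than 10 times as high as either HER2 WT library. HER2 L755S averaged 5.26 ± 2.32 CPM and HER2 WT 0.201 ± 0.154 CPM (SD, n = 2 each). The log2 fold change was 4.70 with a standard error of 0.67, that is 26.1-fold with a 95% interval of 9.37 to 72.5 (edgeR adjusted p = 0.0066). The difference in log2 CPM was 5.98 within number 1 and 3.48 within number 2. Per length, ROBO2 was at 2.47 and 0.81 TPM in HER2 L755S, against 0.05 and 0.14 TPM in HER2 WT.

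ROBO1, the other roundabout receptor that could be tested, was at 7.18 and 9.08 CPM in HER2 L755S, against 6.46 and 11.5 CPM in HER2 WT. In CPM the lines overlapped, and the log2 fold change was -0.15 with a standard error of 0.41 (edgeR adjusted p = 0.998). Per length ROBO1 was lower in HER2 L755S without overlap. It was at 1.68 and 2.24 TPM there, against 2.46 and 5.74 TPM in HER2 WT. With mitochondrial transcripts left out of the TPM total, the lines overlapped. ROBO1 was then at 1.82 and 2.96 TPM in HER2 L755S, against 2.69 and 6.99 TPM in HER2 WT. Its log2 fold change ran from -0.81 to 0.35 over the alternatives. ROBO2 gave 57.0% and 26.6% of the summed TPM of the 4 roundabout receptors in HER2 L755S, against 1.90% and 2.38% in HER2 WT. The summed level itself was 4.33 and 3.05 TPM in HER2 L755S, against 2.63 and 5.88 TPM in HER2 WT, with overlap. The mean length of the ROBO1 transcripts, weighted by abundance, was 5720 and 4307 bases in HER2 L755S, against 3692 and 2772 bases in HER2 WT. ROBO3 had at most 2 counts in a library, and ROBO4, known from endothelium, had none. The 11 tested protein-coding genes within 5 Mb of ROBO2 had a median log2 fold change of 0.38, and none of them passed the test.

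Class 3 semaphorins are secreted, and SEMA3F gave most of their transcripts. SEMA3F was at 73.9 and 44.4 TPM in HER2 L755S, against 83.6 and 68.4 TPM in HER2 WT, a log2 fold change of -0.19 in counts with a standard error of 0.31. SEMA3C was at 15.8 and 20.5 CPM in HER2 L755S, against 29.1 and 60.0 CPM in HER2 WT. Both HER2 L755S libraries were below both HER2 WT libraries, but the log2 fold change of -1.29 with a standard error of 0.40 did not pass (edgeR adjusted p = 0.17, range 0.00095 to 0.92 over the alternatives). The log2 fold change of SEMA3C ran from -1.72 to -0.66 over the alternatives. SEMA3B, known as a tumour suppressor of the lung, was at 8.03 and 5.06 CPM in HER2 L755S, against 15.1 and 8.95 CPM in HER2 WT. These levels did not overlap, and the log2 fold change was -0.87 with a standard error of 0.42 (edgeR adjusted p = 0.51). SEMA3G, named after its values were seen, had no count in HER2 L755S, against 6 and 11 counts in HER2 WT, too few to be tested. With 3 counts allowed over both HER2 L755S libraries, and the 17 HER2 WT counts taken as exact, it was 5.07-fold lower there. Counting error in HER2 WT is left out, so this is not a lower bound.

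The 6 semaphorins of class 4 span the membrane, and SEMA4C was the most abundant, at 54.6 and 27.7 TPM in HER2 L755S, against 60.9 and 46.0 TPM in HER2 WT. SEMA4D, the ligand of PLXNB1, was at 29.2 and 21.5 CPM in HER2 L755S, against 19.9 and 16.5 CPM in HER2 WT. It was the 1 class 4 gene without overlap and higher in HER2 L755S, by 0.48 on the log2 scale with a standard error of 0.34 (edgeR adjusted p = 0.83). SEMA4F was below HER2 WT without overlap, with a log2 fold change of -0.66 (edgeR adjusted p = 0.63). SEMA4A, SEMA4B and SEMA4G overlapped between the lines, with log2 fold changes of -0.22, -0.39 and 0.46. SEMA4G shares exon positions with MRPL43 on the other strand, whose counts came to 360% of its own. The sources used here give no strand setting, so at the shared positions reads of SEMA4G and MRPL43 may not be told apart.

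Among the semaphorins of classes 5 and 6, the largest differences ran both ways. SEMA6A, a membrane ligand of PLXNA2 and PLXNA4, was at 12.4 and 4.87 CPM in HER2 L755S, against 2.38 and 1.86 CPM in HER2 WT. Number 1 of HER2 L755S stood highest, and both HER2 L755S libraries were above both HER2 WT libraries. The log2 fold change was 2.03 with a standard error of 0.51, and the gene lay just outside the threshold (edgeR adjusted p = 0.079, range 0.00089 to 0.79 over the alternatives). Its log2 fold change ran from 0.67 to 2.53 over the alternatives. In TPM, SEMA6A was at 3.27 and 1.02 in HER2 L755S, against 1.02 and 0.99 in HER2 WT, so that HER2 L755S 2 no longer stood apart. With mitochondrial transcripts left out of the TPM total, the lines did not overlap. SEMA6A was then at 3.55 and 1.35 TPM in HER2 L755S, against 1.12 and 1.21 TPM in HER2 WT. The abundance-weighted transcript length of SEMA6A was 5100 and 5036 bases in HER2 L755S, against 3305 and 2593 bases in HER2 WT. SEMA5A was at 18.4 and 44.8 CPM in HER2 L755S, against 8.12 and 14.9 CPM in HER2 WT, with a log2 fold change of 1.45 and a standard error of 0.47 (edgeR adjusted p = 0.20, range 0.00027 to 0.97). It passed without HER2 L755S 1 (0.0043) and without HER2 WT 2 (0.023).

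SEMA6C stood on the other side, at 4.27 and 3.66 CPM in HER2 L755S, against 13.3 and 8.71 CPM in HER2 WT. The groups were apart, and the log2 fold change was -1.47 with a standard error of 0.40 (edgeR adjusted p = 0.11). Over the alternatives the log2 fold change of SEMA6C ran from -1.86 to -1.13. SEMA6D, a ligand of PLXNA1, was at 5.85 and 4.71 CPM in HER2 L755S, against 8.56 and 12.2 CPM in HER2 WT (edgeR adjusted p = 0.36). SEMA6B, the most abundant class 6 gene, overlapped between the lines and had a log2 fold change of -0.80 (edgeR adjusted p = 0.65). SEMA7A, anchored in the membrane by a lipid, had 2 and 1 counts in HER2 L755S, against 15 and 16 counts in HER2 WT. It was 9.24-fold lower in HER2 L755S, with an exact interval of 2.88 to 47.2 for counting error only (edgeR adjusted p = 0.13). Of the 15 tested semaphorins, 11 had a log2 fold change below 0, with a median of -0.39, against 49.7% of all tested genes below 0 and a median of 0.0032.

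Neuropilins are coreceptors of class 3 semaphorins and of vascular endothelial growth factor. NRP1 (ENSG00000099250, GRCh38 chromosome 10, 33177492 to 33336262, reverse strand) had 67 and 74 counts in HER2 L755S, against 10 and 11 counts in HER2 WT. Scaled for depth these were 2.29 and 2.88 CPM in HER2 L755S, against 0.309 and 0.379 CPM in HER2 WT. The libraries of each line lay close together and far from the other line. HER2 L755S averaged 2.59 ± 0.418 CPM and HER2 WT 0.344 ± 0.0494 CPM (SD, n = 2 each). The log2 fold change was 2.90 with a standard error of 0.57, that is 7.45-fold with a 95% interval of 3.15 to 17.6 (edgeR adjusted p = 0.029). Without HER2 WT 1 the adjusted p was 0.064, and over all alternatives it ran from 0.00017 to 0.064. The differences in log2 CPM within numbers 1 and 2 were 2.82 and 2.87.

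NRP2, the paralog of NRP1, was at 3.66 and 2.10 CPM in HER2 L755S, against 1.33 and 0.999 CPM in HER2 WT. Both HER2 L755S libraries were higher, but the log2 fold change of 1.31 with a standard error of 0.52 did not pass (edgeR adjusted p = 0.35). Per length the lines overlapped, at 2.12 and 0.44 TPM in HER2 L755S, against 0.86 and 0.64 TPM in HER2 WT. Whether the changes of NRP1 and NRP2 differ from each other was not tested. The 23 tested protein-coding genes within 5 Mb of NRP1 had a median log2 fold change of -0.02, and none of them passed.

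Plexins are the signalling receptors of semaphorins and were the most abundant of the receptors. PLXNB1, receptor of SEMA4D, was at 154 and 107 TPM in HER2 L755S, against 168 and 155 TPM in HER2 WT. PLXNB2 was at 121 and 66.1 TPM in HER2 L755S, against 143 and 86.6 TPM in HER2 WT. In counts scaled for depth both genes overlapped between the lines, with log2 fold changes of -0.13 and -0.22. PLXND1, a receptor of SEMA3E, was at 137 and 71.6 CPM in HER2 L755S, against 63.8 and 43.7 CPM in HER2 WT. PLXNC1, a receptor of SEMA7A, was at 39.4 and 74.6 CPM in HER2 L755S, against 21.3 and 35.2 CPM in HER2 WT. Both stood higher in HER2 L755S without overlap, at log2 fold changes of 0.96 and 1.01 (standard errors 0.38 and 0.40), and neither passed (edgeR adjusted p = 0.36 for each). CEP83, which shares exon positions with PLXNC1 on the other strand, had counts equal to 74.8% of those of PLXNC1. SEMA3E had at most 4 counts in a library. PLXNA1, PLXNA3, PLXNA4 and PLXNB3 overlapped between the lines, with log2 fold changes of -0.37, -0.18, -0.05 and 0.70. PLXNA3 shares exon positions with LAGE3 on the other strand, whose counts came to 23.7% of its own.

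**Figure D1:**
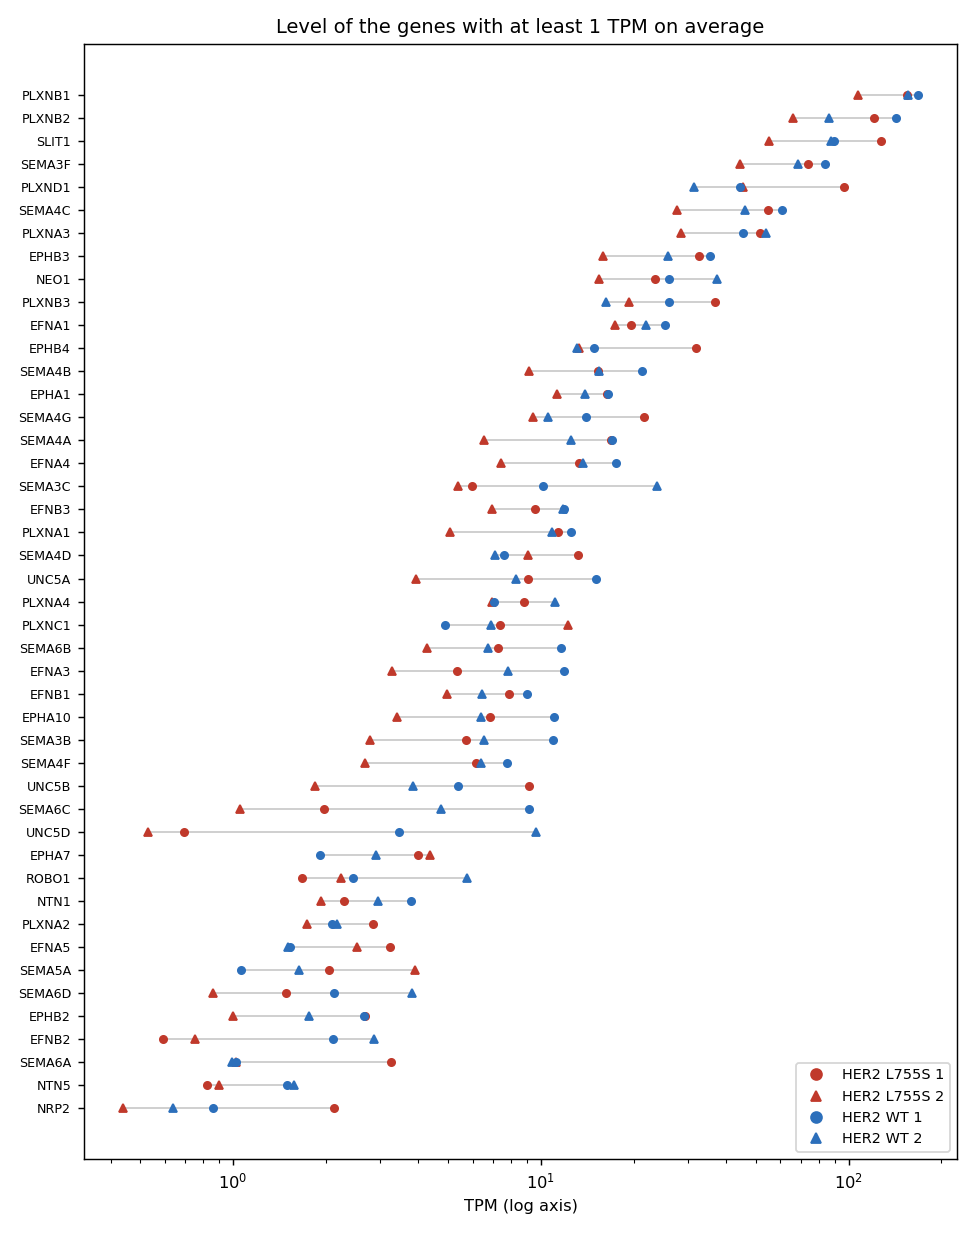
TPM on a log axis for the 45 genes that averaged at least 1 TPM over the 4 libraries, ordered by that mean from top to bottom. Red marks are HER2 L755S and blue marks HER2 WT, circles are number 1, triangles number 2, and grey lines join the lowest and highest library; PLXNB1 and PLXNB2 lie at the top, and UNC5D has both HER2 L755S libraries under 1 TPM.

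Ordered by mean TPM over the 4 libraries, as in the plot of TPM levels, PLXNB1 led at 146 TPM, PLXNB2 followed at 104 TPM and SLIT1 at 90.0 TPM. The ranges of these 3 genes over the libraries overlapped. SEMA3F at 67.6 TPM and PLXND1 at 54.6 TPM came next, and no other member reached 50 TPM. A mean of 10 TPM was reached by 19 genes, 5 TPM by 31 and 1 TPM by 45. All 70 genes together summed to 1057 and 599 TPM in HER2 L755S, against 1024 and 881 TPM in HER2 WT. Mitochondrial transcripts take part of each TPM total, and with them left out the sum was 1146 and 791 TPM in HER2 L755S, against 1120 and 1073 TPM in HER2 WT.

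Netrins were scarce, and NTN1 was the most abundant of them. NTN1 was at 9.78 and 8.72 CPM in HER2 L755S, against 16.4 and 13.4 CPM in HER2 WT. The lines did not overlap, and the log2 fold change was -0.69 with a standard error of 0.35 (edgeR adjusted p = 0.58). DCC, the classical attractive netrin receptor, had at most 2 counts in a library. NEO1, its paralog and a receptor for netrins and RGM proteins, was at 97.0 and 80.7 CPM in HER2 L755S, against 101 and 138 CPM in HER2 WT, with a log2 fold change of -0.43 (edgeR adjusted p = 0.85).

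UNC5D, a repulsive netrin receptor that also binds FLRT proteins, fell in HER2 L755S. It had 118 and 109 counts in HER2 L755S, against 669 and 1696 counts in HER2 WT. Scaled for depth these were 4.03 and 4.25 CPM in HER2 L755S, against 20.7 and 58.4 CPM in HER2 WT. The HER2 L755S libraries lay close together, while HER2 WT 2 was far above HER2 WT 1. HER2 L755S averaged 4.14 ± 0.149 CPM and HER2 WT 39.5 ± 26.7 CPM (SD, n = 2 each). The log2 fold change was -3.25 with a standard error of 0.50 and a 95% interval of -4.34 to -2.17, that is 9.54-fold lower (edgeR adjusted p = 0.0077). Differences in log2 CPM were -2.35 within number 1 and -3.78 within number 2. UNC5D (ENSG00000156687) lies on chromosome 8 of GRCh38 from 35235457 to 35796550, on the forward strand. The 33 other tested protein-coding genes within 5 Mb had a median log2 fold change of -0.62, with medians of -0.62 and -0.68 within numbers 1 and 2, and none of them passed the test. Over the 425 other tested protein-coding genes of chromosome 8 the median was -0.37. The part of the chromosome in the level of UNC5D was not tested.

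The other UNC5 receptors did not pass. UNC5B was at 45.2 and 11.5 CPM in HER2 L755S, against 25.6 and 19.0 CPM in HER2 WT, so the HER2 L755S libraries lay on both sides of the HER2 WT libraries. UNC5A was at 25.2 and 14.0 CPM in HER2 L755S, against 40.3 and 22.9 CPM in HER2 WT, with overlap and a log2 fold change of -0.69 (edgeR adjusted p = 0.71). UNC5C had 1 count in all. The summed TPM of the 4 UNC5 receptors was 18.9 and 6.30 in HER2 L755S, against 23.9 and 21.8 in HER2 WT.

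**Figure D2:**
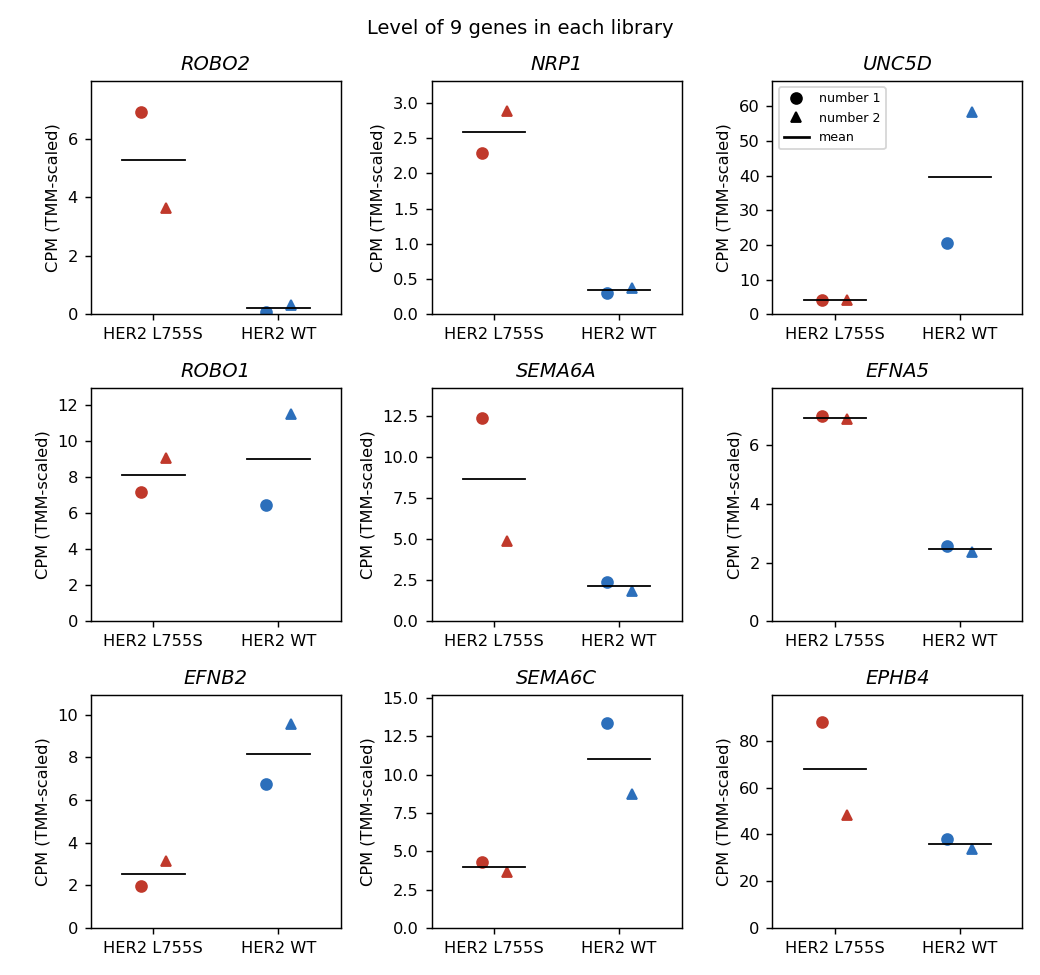
Level in CPM, scaled with TMM, of 9 genes in each library, with HER2 L755S (red) left of HER2 WT (blue), circles for number 1, triangles for number 2 and a line at the mean of each line's 2 libraries. ROBO2, NRP1 and UNC5D passed the test; ROBO1 overlaps between the lines, and the other 5 genes do not overlap but did not pass.

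Ephrin-A ligands are tethered to the membrane by a lipid anchor, and EFNA5 ran against the others. EFNA5 was at 7.01 and 6.89 CPM in HER2 L755S, against 2.56 and 2.38 CPM in HER2 WT. The libraries of each line nearly coincided, as the plot of 9 genes by library shows. The log2 fold change was 1.49 with a standard error of 0.41, and did not pass (edgeR adjusted p = 0.11). EFNA3 was at 5.30 and 3.93 CPM in HER2 L755S, against 11.6 and 7.82 CPM in HER2 WT, with a log2 fold change of -1.07 (edgeR adjusted p = 0.31). EFNA1, the most abundant ephrin per length, was at 18.9 and 18.9 CPM in HER2 L755S, against 22.2 and 20.6 CPM in HER2 WT. EFNA1 and EFNA4 were lower in HER2 L755S without overlap, with log2 fold changes of -0.18 and -0.47.

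Ephrin-B ligands cross the membrane and can signal backwards into the cell that carries them. EFNB2, the ligand of EPHB4, was at 1.95 and 3.15 CPM in HER2 L755S, against 6.77 and 9.57 CPM in HER2 WT. The lines did not overlap, and the log2 fold change was -1.68 with a standard error of 0.44 (edgeR adjusted p = 0.094). Over the alternatives the log2 fold change of EFNB2 ran from -2.08 to -1.34. EFNB3 was lower without overlap at a log2 fold change of -0.35, and EFNB1 overlapped at -0.11. Of the 8 ephrins, 7 had a log2 fold change below 0 and 1 above, against 49.7% of all tested genes below 0, and none passed. EFNA4, EFNA3 and EFNA1 lie close together on chromosome 1, with starts at 155063731, 155078872 and 155127460. The tested protein-coding genes within 5 Mb of each had a median of -0.18. The part of this region in their levels was not tested.

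Of the 14 EPH receptors, 10 were tested and none passed. EPHB4, the receptor of EFNB2, was at 88.0 and 48.3 CPM in HER2 L755S, against 38.1 and 33.9 CPM in HER2 WT. Number 1 of HER2 L755S stood highest and the lines did not overlap in CPM, with a log2 fold change of 0.92 and a standard error of 0.37 (edgeR adjusted p = 0.36). In TPM they did overlap, at 32.0 and 13.3 TPM in HER2 L755S, against 14.9 and 13.1 TPM in HER2 WT. With mitochondrial transcripts left out of the TPM total, the lines did not overlap for EPHB4. It was then at 34.72 and 17.63 TPM in HER2 L755S, against 16.31 and 15.99 TPM in HER2 WT. Counts of SLC12A9, which shares exon positions with EPHB4 on the other strand, came to 78.4% of those of EPHB4. EPHB3, the most abundant EPHB receptor, was at 94.1 and 63.3 CPM in HER2 L755S, against 88.1 and 59.5 CPM in HER2 WT, nearly the same in both lines within each number. EPHA7 was at 15.8 and 23.8 CPM in HER2 L755S, against 8.34 and 14.0 CPM in HER2 WT (edgeR adjusted p = 0.51). EPHA1, the most abundant EPHA receptor, had a log2 fold change of 0.29 in counts and -0.15 in TPM, and shares exon positions with ZYX, whose counts came to 260% of its own. EPHA10, which lacks kinase activity, had a log2 fold change of -0.75 with overlap. EPHA8, named after its values were seen, had 9 and 0 counts in HER2 L755S, against 41 and 12 counts in HER2 WT (edgeR adjusted p = 0.44). Over the alternatives the log2 fold change of EPHA8 ran from -7.62 to -0.71. EPHA3 and EPHA5 had no count in any library.

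**Figure D3:**
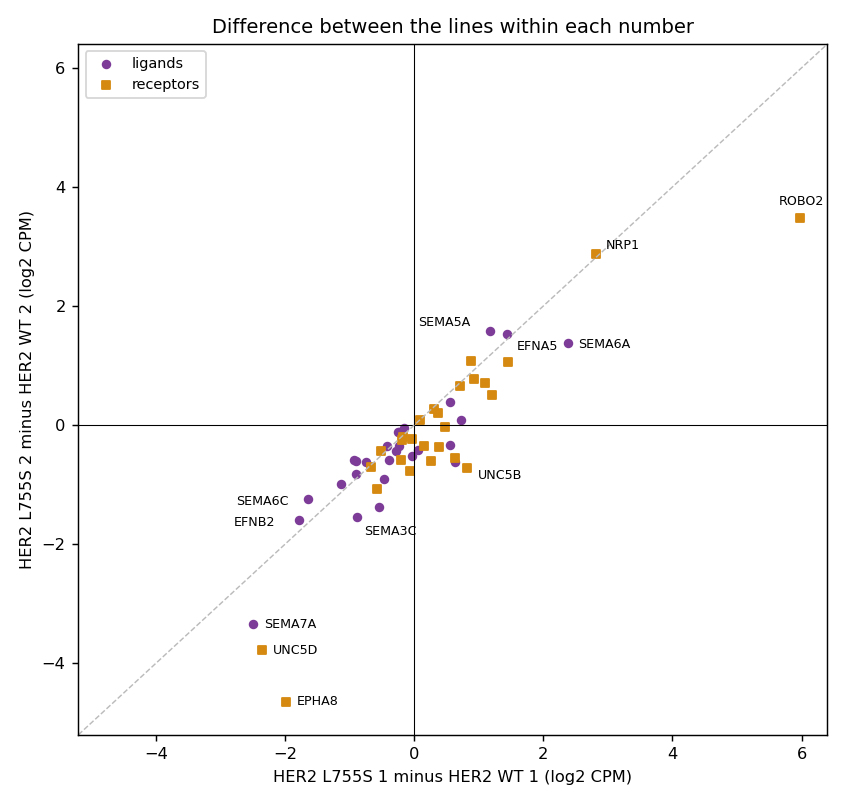
Difference in log2 CPM between HER2 L755S 1 and HER2 WT 1 (horizontal) and between HER2 L755S 2 and HER2 WT 2 (vertical) for the 54 tested genes, with ligands as purple circles and receptors as orange squares. The dashed line marks equal differences; ROBO2 lies at 5.98 and 3.48, UNC5D at -2.35 and -3.78, and UNC5B at 0.82 and -0.72.

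Within replicate numbers, 45 of the 54 tested genes (83.3%) differed in the same direction in number 1 and number 2, against 65.5% of all tested genes. The exceptions were SLIT1, ROBO1, PLXNA2, PLXNA4, NTN3, NTN5, UNC5B, EPHB2 and EPHB6. The plot of the differences within each number shows ROBO2 and NRP1 at the upper right and UNC5D at the lower left. The median difference of the tested members was -0.05 within number 1 and -0.37 within number 2. The median size of the difference was 0.60 within each number, against 0.29 and 0.39 for all tested genes in numbers 1 and 2. Between the libraries of 1 line it was 0.58 in HER2 L755S and 0.44 in HER2 WT, against 0.44 and 0.43 for all tested genes.

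**Figure D4:**
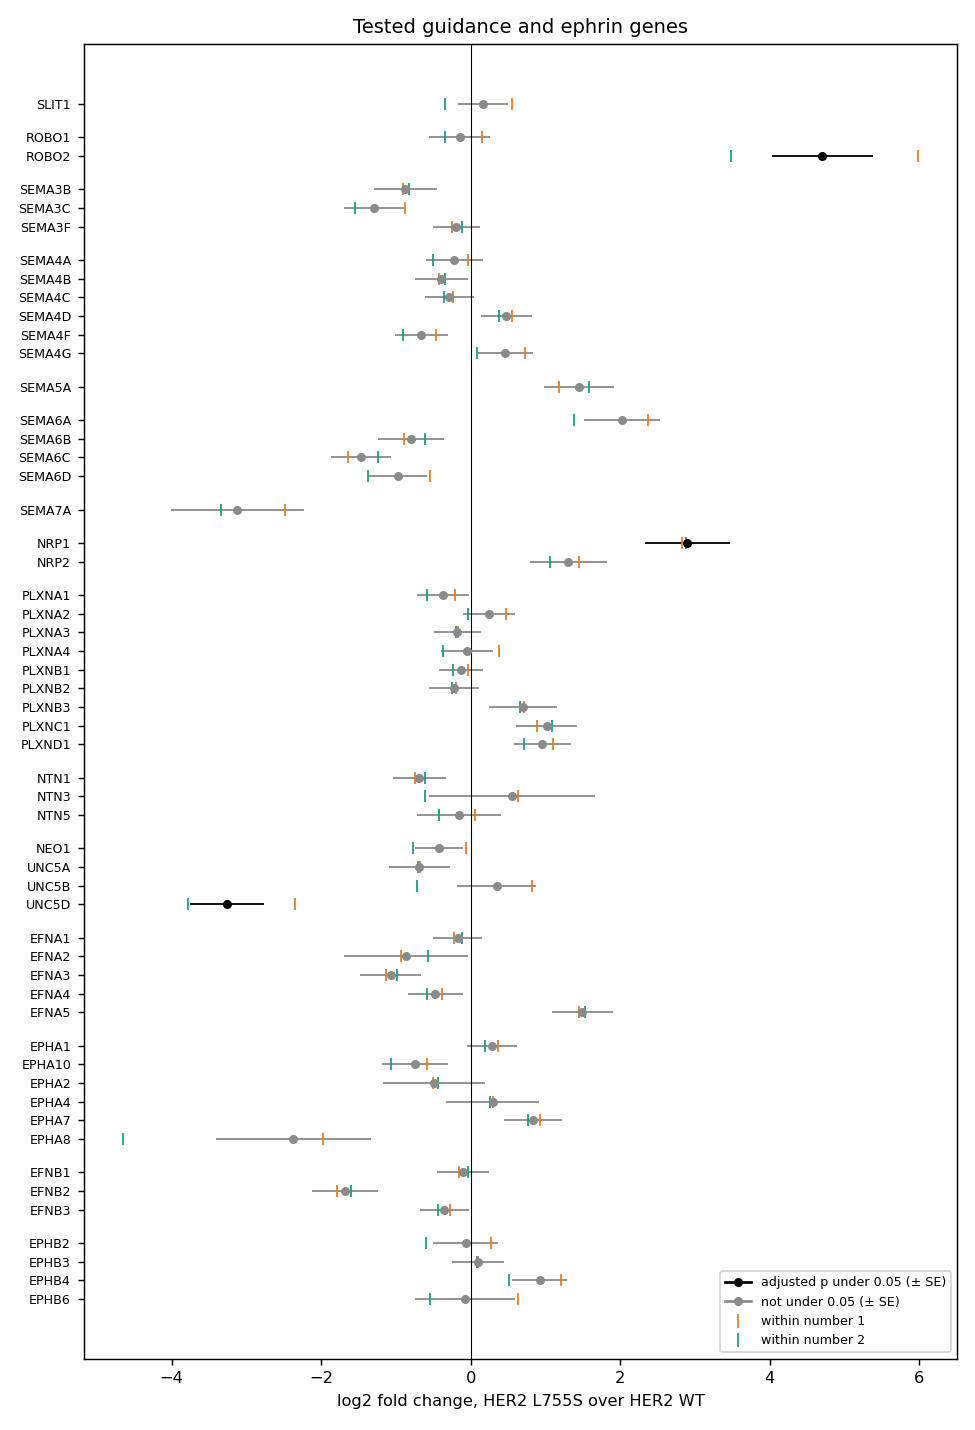
Log2 fold change of HER2 L755S over HER2 WT for the 54 tested genes, grouped by family, with bars of 1 standard error from the edgeR fit and short coloured strokes for the differences within number 1 (orange) and number 2 (green). Black points passed an adjusted p of 0.05 and grey points did not; ROBO2 and NRP1 lie at 4.70 and 2.90, and UNC5D at -3.25.

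By role, the 27 tested ligands had a median log2 fold change of -0.35, with 7 above and 20 below 0, and the 27 tested receptors a median of -0.05, with 13 above and 14 below 0. The difference between the roles was not tested. Over all 54 tested genes the median was -0.17, with 20 above and 34 below 0, and 14 genes (25.9%) differed by more than 2-fold, against 11.4% of all tested genes. Without HER2 L755S 1 the median was -0.42. An unadjusted p under 0.05 was reached by 17 of them (31.5%), against 10.5% of all tested genes. On chromosome 1, which holds 10 of the tested members, 9 lay below 0. Of its 1364 other tested protein-coding genes 72.1% lay below 0, with a median of -0.20. EFNA1, EFNA3, EFNA4, SEMA4A, SEMA6C and EPHA10 are among the 9 members. As the plot of fold changes by family shows, standard errors ran from 0.30 to 1.11 on the log2 scale, and 3 of the 14 genes past 2-fold passed the test. The abundance-weighted transcript length did not overlap between the lines for 10 of the 39 members with at least 100 counts in every library (25.6%), against 27.9% of all genes at that depth.

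Other genes of these pathways, 79 cofactors and intracellular mediators listed by role, had 75 tested genes, of which 1 rose and 3 fell (5.33%, against 1.69% of all tested genes). FLRT3, a membrane protein that binds UNC5 receptors and ROBO1, was at 8.82 and 8.02 CPM in HER2 L755S, against 1.08 and 1.14 CPM in HER2 WT. Both libraries of each line lay close together, and the log2 fold change was 2.92 with a standard error of 0.43 (edgeR adjusted p = 0.0073). L1CAM, an adhesion molecule that partners NRP1 in neurons, was at 17.3 and 6.89 CPM in HER2 L755S, against 93.3 and 65.3 CPM in HER2 WT. It fell in HER2 L755S, with a log2 fold change of -2.71 and a standard error of 0.46 (edgeR adjusted p = 0.014).

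FYN, a Src family kinase that acts below plexins and EPH receptors, was at 6.12 and 5.61 CPM in HER2 L755S, against 17.1 and 19.9 CPM in HER2 WT. It fell with a log2 fold change of -1.66 and a standard error of 0.36 (edgeR adjusted p = 0.043), a call lost without HER2 L755S 1 (0.065), without HER2 L755S 2 (0.12) and without HER2 WT 2 (0.088). Over the alternatives its adjusted p ran from 0.00015 to 0.12, with limma-voom at 0.052 and limma-trend on TPM at 0.10. SDCBP, the adaptor syntenin that binds ephrin-B ligands, was at 0.274 and 0.0389 CPM in HER2 L755S, against 4.05 and 3.82 CPM in HER2 WT. It lies on chromosome 8, as UNC5D does, and fell with a log2 fold change of -4.58 and a standard error of 0.71 (edgeR adjusted p = 0.0084). The most abundant mediators were the actin severing protein CFL1, the kinase PAK1 and the small GTPase CDC42, at means of 492, 417 and 398 TPM. PAK1 was at 634 and 613 CPM in HER2 L755S, against 1121 and 1405 CPM in HER2 WT, and did not pass (edgeR adjusted p = 0.13). The 3 tested subgroups with a call were the semaphorin and plexin effectors (2 of 25), the netrin and RGM cofactors (1 of 13) and the ephrin and EPH effectors (1 of 19), while none of the 18 slit and roundabout cofactors passed.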

How the data were processed

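RNA was measured in 4 libraries, 2 of MM134 HER2 L755S and 2 of MM134 HER2 WT, grouped and numbered by their titles. Per the labels' protocols, poly(A) RNA from 250 ng of total RNA was made into TruSeq libraries and sequenced on a NovaSeq instrument. The deposited gene tables are RSEM output, per the file headers, and hold an expected count per gene, which need not be whole, an abundance-weighted length, and TPM and FPKM values that the authors computed from the same estimates. FPKM values were not used. STAR, edgeR and GRCh38 are named, without version or role, in the submitters' processing notes; strand setting and annotation release are not given in those sources. Both tables of number 2 are named as merged, without saying of what. RSEM divides reads that fit several genes, and 9.53% to 11.5% of genes per library had a count that was not whole.

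Expected counts were rounded, and 16538 of 60675 genes passed filterByExpr. Libraries were scaled by TMM (factors 0.937 to 1.04), and CPM values use the scaled totals. The comparison used edgeR 4.0.16 (quasi-likelihood, two-sided, R 4.3.3) without a replicate term, with Benjamini-Hochberg adjustment over all tested genes at 0.05. Standard errors are the fold change over the root of F. Differences within a number use log2 CPM with a prior count of 0.5. An exact permutation test of 2 against 2 libraries cannot go below 0.333, so none was used. Genes named with values are ROBO2, those called with or without a replicate term, those of at least 5 TPM on average in either line and the most abundant of each family, with, among mediators, those called and the 3 most abundant. EPHA8, SEMA3G and members given only as low counts or as exceptions to a count were named after their values were seen. The members, the lists and the rule were chosen with earlier results of these data known. Positions are from GENCODE 29 (GRCh38), matched by Ensembl identifier for all 70 members, and promoters from RefSeq (GRCh38.p14), matched by symbol for 60 of them. The fit was tested on simulated data. Alternatives were size factors of DESeq2, no scaling, DESeq2 1.42.0, limma-voom and limma-trend on log2 of TPM plus 0.5 (limma 3.58.1), no filter, at least 50 counts in 2 libraries, a replicate block, an adjusted p of 0.01 and leaving out each library. A fit without mitochondrial genes, and the alternatives for the mediators, were added after the data were seen.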

Additional observations from a re-analysis of the deposited data

How the results depend on the processing

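ROBO2 and UNC5D had adjusted p of at most 0.037 and 0.020 under every alternative fit. NRP1 was lost without HER2 WT 1 (0.064) and at a threshold of 0.01 (0.029). Size factors of DESeq2, no scaling, limma-voom and leaving out mitochondrial genes gave 2 members higher and 1 lower, as reported. DESeq2 called 4 higher and 3 lower, against 3.54% of all genes, and no filter 5 and 4, against 2.79%. At an adjusted p of 0.01 the count of higher members was 1. Leaving out 1 library gave 2 to 3 higher and 1 to 3 lower (2 without HER2 L755S 1, 3 without HER2 WT 1 and 2 without HER2 WT 2), against 0.998% to 1.32% of all genes higher and 1.07% to 2.04% lower, with the spread of the lone library taken from the other line. With DESeq2 the added calls were SEMA6A (adjusted p = 0.0061), SEMA6C (0.028), EFNB2 (0.021) and EFNA5 (0.029, range 0.0049 to 0.65 over its alternatives).

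Over all tested genes, 122 rose and 157 fell. DESeq2 gave 276 and 309, no filter 328 and 431, an adjusted p of 0.01 gave 49 and 49, limma-trend on TPM gave 79 higher, and leaving out 1 library gave 165 to 219 higher and 177 to 338 lower. Among the mediators, 1 rose and 3 fell. The lower count was 6 with no filter, 1 at an adjusted p of 0.01, and 2 to 5 without 1 library (5 without HER2 WT 1). The median over the tested members ran from -0.42 (without HER2 L755S 1) to -0.044 (without HER2 WT 1), and was -0.35 on TPM.

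The replicate block gave 10 members higher and 12 lower, against 725 genes higher (4.38%) and 1018 lower (6.16%) over all tested genes, and 2 mediators higher and 11 lower. Libraries of the same number deviated together (correlation 0.42 over 16538 genes, 0.73 over 54 members). With 2 numbers, and no label that says what a number shares, they were not taken as pairs.

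Small differences turned their sign, and the cause was not tested. On TPM the log2 fold change was -0.15 for EPHA1, -0.40 for EPHB3, -0.086 for UNC5B and -0.079 for SLIT1. PLXNA4 gave 0.0084 with limma-voom and 0.0038 with the replicate block. Leaving out each library in turn, log2 fold changes ran from -0.38 to 0.042 for SEMA3F, from -0.73 to 0.14 for SEMA4A, from -0.00045 to 0.79 for SEMA4G, from -0.22 to 0.40 for EPHB3, from -0.29 to 0.12 for EFNB1, from -0.95 to 1.00 for UNC5B, from -0.40 to 0.42 for PLXNA4, from -0.29 to 0.0034 for PLXNB1, from -0.55 to 0.078 for PLXNB2, from -0.51 to 0.35 for ROBO1 and from -0.32 to 0.51 for SLIT1. Over all alternatives, 22 values of named genes turned their sign and 525 kept both sign and side of the threshold. A further 36 moved to a pass, 19 of them with the replicate block, and 1 lost its pass.

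With 2 libraries a line, depth and replication limit what can be told for genes under about 50 counts. Such genes are ROBO2 (3 and 9 counts) and NRP1 in HER2 WT, SEMA7A and EPHA8. The size of the ROBO2 fold change rests on those few HER2 WT counts.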
